A study of Mus musculus with 2 samples.

Results

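Among the subunit genes of the GABA-A receptor, 7 (Gabra2, Gabra3, Gabra4, Gabra5, Gabrb1, Gabrb2 and Gabrd) were followed across the cell types of the mouse thalamus. They were taken by gene symbol, and all 7 were found among the 32285 genes measured. Thalamic cells of 2 untreated C57BL/6J mice, an inbred strain, were read by single-cell RNA sequencing in droplets. Both mice were wildtype and aged 2 months, and each gave 1 library. There is a single group of animals, so every comparison sets cell classes or neuron subtypes from the same 2 mice against each other.

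GABA-A receptors are chloride channels opened by the inhibitory transmitter GABA, and each is built from 5 subunits, usually alpha, beta and a gamma or delta subunit. The alpha subunit sets much of a receptor's location and pharmacology. The alpha2 and alpha3 subunits (Gabra2, Gabra3) are known mainly from synaptic receptors that carry brief inhibition, whereas alpha4 together with delta (Gabra4, Gabrd) forms high-affinity receptors outside the synapse that carry the tonic inhibition of thalamic relay neurons. The alpha5 subunit (Gabra5) is also known largely from extrasynaptic receptors, and the beta subunits (Gabrb1, Gabrb2) hold part of the GABA binding site and pair with either kind of alpha subunit.

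Of the 7 genes, 3 are neighbours on mouse chromosome 5 (GRCm38): Gabra2 (ENSMUSG00000000560, 70957597 to 71095849, minus strand), Gabra4 (ENSMUSG00000029211, 71569749 to 71658308, minus strand) and Gabrb1 (ENSMUSG00000029212, 71658113 to 72149037, plus strand). Gabra4 and Gabrb1 lie head to head, and their 5′ ends overlap by 196 bases. The sources used here do not say whether the counting used the strand of a read, so how reads within that overlap were assigned is not known. The stretches before the start sites of these 3 neighbours are shown because their mRNA had its highest mean level in 3 different cell classes. They are reference sequence from RefSeq (GRCm38.p6), read 5′ to 3′ on the gene's own strand, and CpG dinucleotides are in capitals.
Gabra2, chr5:71095850-71096099, minus strand: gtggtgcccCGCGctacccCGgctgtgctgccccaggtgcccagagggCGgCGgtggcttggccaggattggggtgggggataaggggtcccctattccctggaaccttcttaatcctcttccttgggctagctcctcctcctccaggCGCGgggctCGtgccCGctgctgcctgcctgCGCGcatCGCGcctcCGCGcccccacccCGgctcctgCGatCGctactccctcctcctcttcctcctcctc
Gabra4, chr5:71658364-71658558, minus strand: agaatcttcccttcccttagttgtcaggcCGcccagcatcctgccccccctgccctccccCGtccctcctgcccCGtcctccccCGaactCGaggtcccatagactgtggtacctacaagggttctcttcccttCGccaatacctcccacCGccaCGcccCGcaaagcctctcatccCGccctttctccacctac
Gabrb1, chr5:71699682-71699931, plus strand: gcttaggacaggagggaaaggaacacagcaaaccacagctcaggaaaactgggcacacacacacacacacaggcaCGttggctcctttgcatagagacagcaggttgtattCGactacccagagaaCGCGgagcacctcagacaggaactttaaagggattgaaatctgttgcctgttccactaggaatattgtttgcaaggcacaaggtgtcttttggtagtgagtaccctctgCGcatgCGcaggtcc
The stretch for Gabra4 is 195 bases long, since the bases nearest its start overlap an annotated exon of Gabrb1, and the stretch for Gabrb1 precedes its second annotated start, 41819 bases inside the gene. The Gabra2 stretch holds 18 CpG, the Gabrb1 stretch 6 and the Gabra4 stretch 10. Over 250 bases before a start, 21.7% of 32851 annotated windows hold at least as many CpG as that of Gabra2, 33.5% as many as the whole Gabra4 window (12) and 50.4% as many as the second-start window of Gabrb1, which stands at the median of 6. The window before the first start of Gabrb1, not shown because it overlaps Gabra4, holds 18 CpG, as many as that of Gabra2. The TCF/LEF core CTTTGA, searched on either strand, was in none of these 3 windows, in both windows of Gabra3 and in 1 of the 3 of Gabrb2, and 13.8% of all windows hold it. Of the 7 genes, 6 had windows in that table, and the windows of Gabra3 on chromosome X held 0 CpG. The other genes are Gabra3 (ENSMUSG00000031343, chromosome X, 72432681 to 72656848), Gabra5 (ENSMUSG00000055078, chromosome 7, 57407672 to 57510059), Gabrb2 (ENSMUSG00000007653, chromosome 11, 42419757 to 42629028) and Gabrd (ENSMUSG00000029054, chromosome 4, 155384980 to 155398112). Gabrb1 spans 490925 bases and Gabrd 13133, and the use of intron reads in the counting is not given, so unique molecular identifier (UMI) counts were compared between cell classes gene by gene and not between genes.

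The library of mouse 1 held 163418203 UMIs in 7889 barcodes and that of mouse 2 held 204839993 UMIs in 12107 barcodes. After filtering, 6185 and 9176 cells formed 36 clusters, named from marker genes. The subunit genes and the other lists of genes read out below were held out of the clustering, while the marker genes were not. The libraries shared 36 cell barcodes, 0.456% of those of mouse 1. Neuron classes were glutamatergic-like (205 and 1601 cells in mice 1 and 2), habenular-like (143 and 348), GABAergic-like (48 and 63) and neurons with no resolved class (131 and 494). The names rest on these markers, so marker levels describe the classes and do not test the names. Slc17a6, the glutamate transporter of thalamic neurons, stood at 618 and 672 CPM in glutamatergic-like cells and at 3.22 and 5.20 in GABAergic-like cells. CPM are the UMIs of a gene scaled to a fixed total of UMIs per class. Gad2, a GABA-synthesizing enzyme, stood at 1688 and 1755 in GABAergic-like cells. Habenular-like cells held Tac2 and Chat, genes of the medial habenula beside the thalamus. Subtypes rest on few markers each and are called by them: Tnnt1/Ramp3-high (180 and 749 cells) and Necab1/Gbx2-high (25 and 852) make up the glutamatergic-like class, and Cbln-high, by Cbln1 and Cbln4 (77 and 174), and Calb2-high (26 and 177) are among the unresolved neurons. Calb2 itself does not separate the last of these, at 967 and 855 CPM there and 865 and 863 in Necab1/Gbx2-high cells, so the name marks a cluster and not a gene that it alone expresses. Mouse 1 therefore gave mostly Tnnt1/Ramp3-high cells and mouse 2 an even mixture, which moves class means. The 5 neuron clusters with 1252 of the 3033 neurons had a median of 0.222% to 0.265% ribosomal protein UMIs, against 2.31% to 4.54% in the other neuron clusters. Values without these ribosomal-poor clusters are given where they bear on a result. A subtype name needed a score of 0.2, the mean of a cluster's marker levels, each scaled to the highest of these neuron clusters. Ribosomal-poor clusters scored 0.274 for Tnnt1/Ramp3-high, 0.410 for Necab1/Gbx2-high and 0.259 for Cbln-high, against 1 in the ribosomal-rich cluster of each. The word high thus describes the ribosomal-rich clusters, and the ribosomal-poor ones carry the names on weak markers.

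Levels are CPM of the summed counts of a class, given for mouse 1 and mouse 2 and as mean ± SD with n = 2 mice. Genes with an edgeR quasi-likelihood p below 0.05 after Benjamini-Hochberg adjustment over all genes were called, provided that their level changed by 1 or more on the log2 scale. Log2 fold changes are given ± their standard error (SE). A mouse term in the fit takes up the differences between these 2 animals that all classes share. The error of each test is the scatter that remains, pooled over all classes in the fit and moderated across genes. It does not measure the whole spread between animals.

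**Figure D1:**
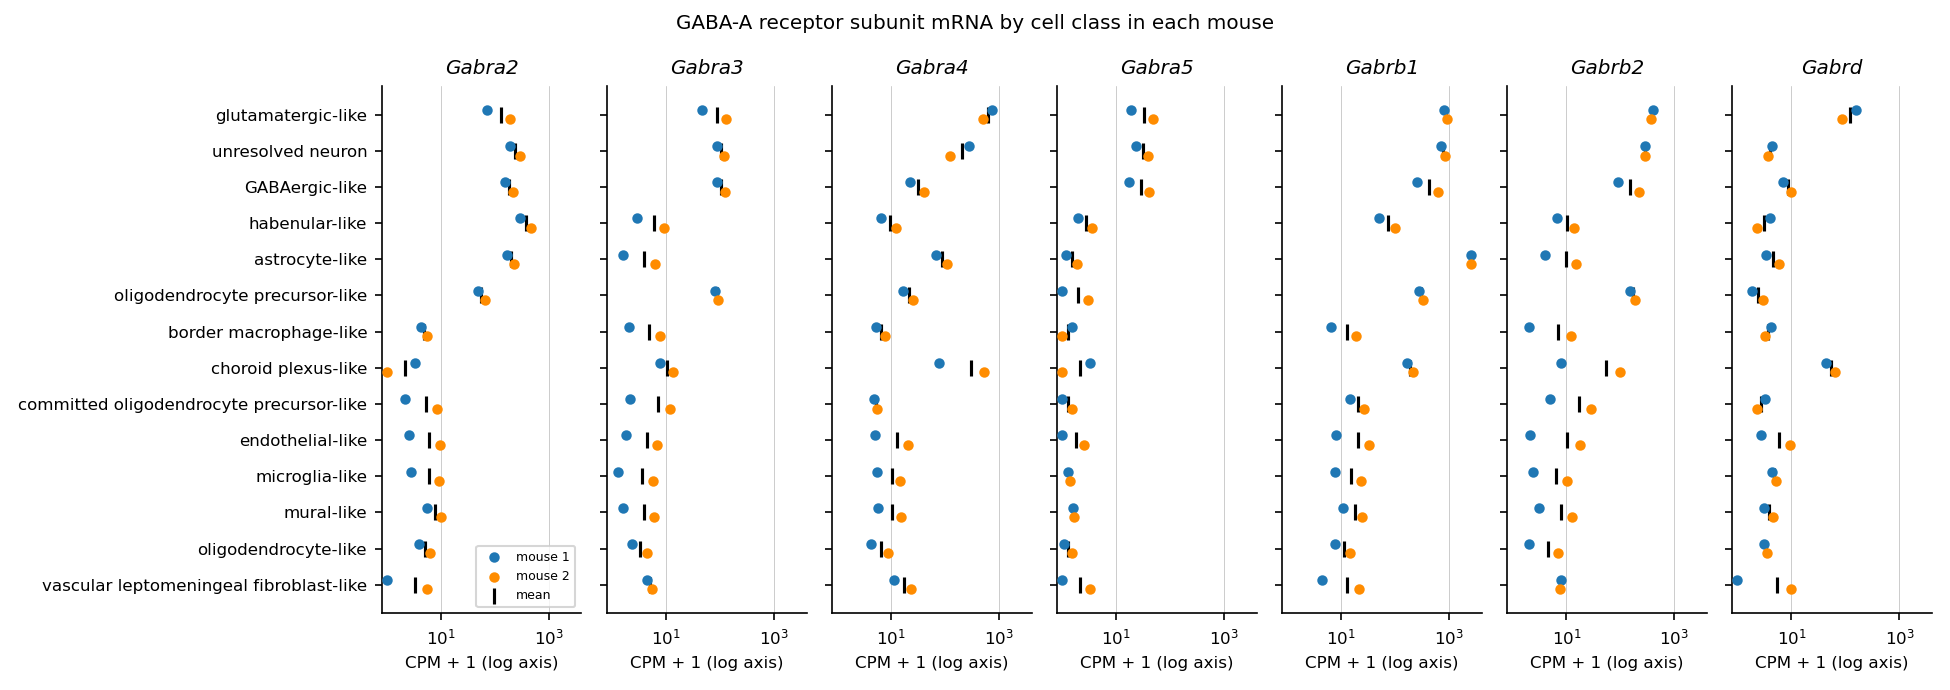
Level of each subunit mRNA (CPM + 1 on a log axis) in 14 cell classes, with 1 point per mouse and the mean of the 2 mice as a vertical tick. Gabrb1 is highest in astrocyte-like cells (2503 and 2467 CPM) and Gabrd in glutamatergic-like cells. Gabra4 has its highest mean in glutamatergic-like cells, with choroid plexus-like barcodes above them in mouse 2 (533 against 510 CPM), and Gabra2 in habenular-like cells.

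Gabra4 and Gabrd, the alpha4 and delta pair of extrasynaptic receptors, had their highest means in glutamatergic-like neurons. Gabra4 stood at 731 and 510 CPM there (621 ± 156), at 278 and 124 in unresolved neurons, at 66.9 and 107 in astrocyte-like cells, at 21.0 and 40.5 in GABAergic-like cells and at 5.51 and 11.3 in habenular-like cells. Its range in habenular-like cells overlapped that of microglia-like cells (4.52 and 13.9 CPM), a class that should lack neuronal receptors. Gabrd stood at 157 and 85.0 CPM in glutamatergic-like neurons (121 ± 50.8) and at no more than 8.91 CPM in either mouse in the other neuron classes. Both mice had a higher level in glutamatergic-like cells than any other named class for Gabrd, while for Gabra4 the range of glutamatergic-like cells overlapped that of choroid plexus-like barcodes (74.9 and 533 CPM, from 33 and 43 UMIs). Those barcodes had a median of 1253 and 2379 UMIs and also held the neuronal gene Snap25 at 491 and 1921 CPM, and the part of neuronal RNA in their subunit values was not tested.

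Gabra2 was spread over neurons and astrocyte-like cells. It stood at 289 and 459 CPM in habenular-like cells (374 ± 120), at 186 and 291 in unresolved neurons, at 165 and 222 in astrocyte-like cells, at 153 and 215 in GABAergic-like cells and at 71.3 and 187 in glutamatergic-like cells. Each mouse gave these 5 classes in the same order, although the range of each overlapped that of the next, and all of them lay above oligodendrocyte precursor-like cells (47.4 and 63.2 CPM) in each mouse. Gabra3 had overlapping ranges in GABAergic-like cells (86.3 and 123 CPM), unresolved neurons (86.5 and 119), glutamatergic-like cells (45.9 and 126) and oligodendrocyte precursor-like cells (80.4 and 90.6). In mouse 1, however, the glutamatergic-like cells lay well below the others. Gabra3 fell to 1.88 and 8.27 CPM in habenular-like cells. Gabra5 was a low-level neuronal gene, at 17.6 and 46.8 CPM in glutamatergic-like, 22.3 and 38.6 in unresolved and 16.1 and 39.7 in GABAergic-like neurons. It was near 0 elsewhere, with 0.941 and 2.55 CPM in habenular-like cells and a highest mean of 1.14 ± 1.61 CPM among the tested classes that are not neurons.

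The beta subunits divided differently. Gabrb1 was highest in astrocyte-like cells, at 2503 and 2467 CPM (2485 ± 25.3), above glutamatergic-like (801 and 902) and unresolved neurons (703 and 826) in each mouse. GABAergic-like cells had 246 and 605 CPM of Gabrb1, oligodendrocyte precursor-like cells 271 and 319, and habenular-like cells 49.0 and 96.8. Gabrb2 was highest in glutamatergic-like cells (397 and 366 CPM), above unresolved neurons (282 and 280), which lay above oligodendrocyte precursor-like cells (147 and 186) in each mouse. GABAergic-like cells had 89.5 and 216 CPM of Gabrb2, overlapping the precursors, whereas habenular-like (5.65 and 12.8) and astrocyte-like cells (3.02 and 14.3) were near the level of microglia-like cells (1.45 and 9.34).

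Glutamatergic-like neurons were then set against GABAergic-like neurons, the class with markers of inhibitory cells. Of the 7 subunit genes, 4 were called higher in glutamatergic-like cells (7.06% of all 17230 genes tested were called higher) and 0 lower (4.71% of all genes). At the levels given above, Gabra4 was higher by a log2 fold change of 4.84 ± 0.63 (edgeR adjusted p = 2.01e-05) and Gabrd by 4.34 ± 0.52 (8.25e-06), each in both mice. Gabrb1 (1.46 ± 0.45, adjusted p = 0.0335) and Gabrb2 (1.98 ± 0.62, 0.0375) passed narrowly, and in mouse 2 the Gabrb1 levels were 902 against 605 CPM. Gabra2 (-0.36 ± 0.37), Gabra3 (-0.19 ± 0.48) and Gabra5 (0.48 ± 0.43) were not called. With DESeq2 size factors, with the DESeq2 test, without the mouse term, with a 5% mitochondrial limit or without the ribosomal-poor clusters, 2 members were called, Gabra4 and Gabrd, and the calls of Gabrb1 and Gabrb2 were lost. With no gene filter 3 were called, and the call of Gabrb2 was lost (adjusted p = 0.117).

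**Figure D2:**
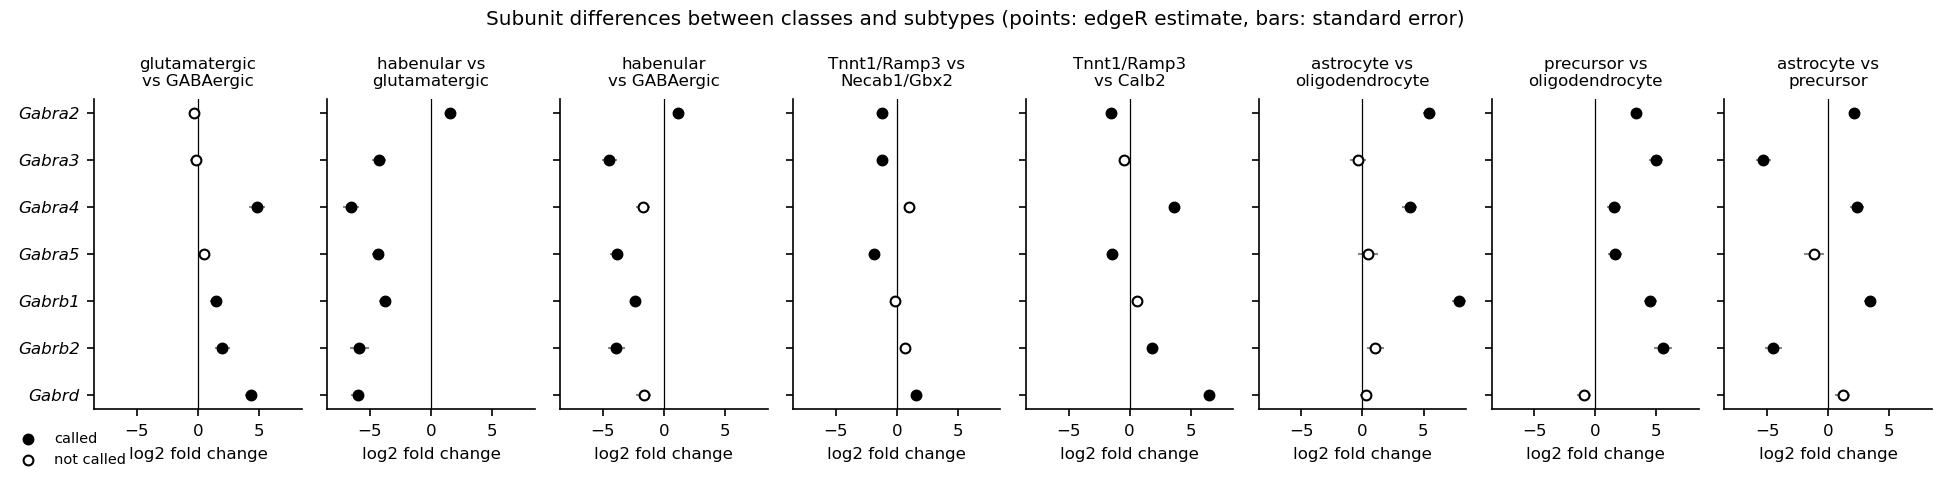
Log2 fold change of each subunit gene in 8 comparisons (points, edgeR estimate from 2 mice per class; bars, standard error), with filled points for called genes. In habenular-like against glutamatergic-like cells 6 genes lie to the left and Gabra2 alone to the right.

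Habenular-like neurons differed from the thalamic glutamatergic-like neurons in nearly every subunit. Of the 7 genes, 6 were called lower (12% of all genes tested were called lower) and Gabra2 alone was called higher (8.89% of all genes). Gabra4 was lower by -6.55 ± 0.68 on the log2 scale (edgeR adjusted p = 3.17e-07), Gabrd by -6.00 ± 0.55 (6.16e-08) and Gabrb2 by -5.86 ± 0.75 (4.54e-06). Gabra5, Gabra3 and Gabrb1 were lower by -4.33 ± 0.52, -4.26 ± 0.58 and -3.79 ± 0.49. Gabra2 was higher by 1.53 ± 0.37 (adjusted p = 0.00389), with 289 and 459 CPM against 71.3 and 187 in mice 1 and 2, and the groups did not overlap. Without the mouse term the call of Gabra2 was lost (adjusted p = 0.156).

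Against GABAergic-like neurons, habenular-like neurons had 4 subunit genes lower (7.94% of all genes tested) and 1 higher (6.69%). Gabra3 was lower by -4.46 ± 0.59, Gabrb2 by -3.88 ± 0.70, Gabra5 by -3.85 ± 0.53 and Gabrb1 by -2.34 ± 0.46. Gabra4 (-1.71 ± 0.60, edgeR adjusted p = 0.059) and Gabrd (-1.66 ± 0.60, 0.0638) were not called, although Gabra4 passed with the DESeq2 test (adjusted p = 0.049), at Leiden resolution 2 (0.0202) and without the choroid plexus-like sums (0.0427). Gabra2 was called higher (1.17 ± 0.37, adjusted p = 0.0335), but that call was lost with DESeq2 size factors, the DESeq2 test, no mouse term, a 5% mitochondrial limit or the ribosomal-poor clusters left out, where its log2 fold change was 0.92.

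Among the subtypes of glutamatergic-like and unresolved neurons, Tnnt1/Ramp3-high cells carried the most Gabra4 and Gabrd, and the other subtypes more Gabra2 and Gabra5. Cbln-high and Calb2-high cells were not resolved as glutamatergic-like in the main setting, so a thalamic identity is not shown for them. The class of Cbln-high cells depended on the setting. Their clusters were named glutamatergic-like with doublets kept, and at Leiden resolution 2 only the ribosomal-poor cluster was. Tnnt1 and Ramp3 are markers of first-order relay nuclei. Gabrd stood at 170 and 139 CPM in Tnnt1/Ramp3-high cells (154 ± 22.5), at 69.1 and 45.3 in Necab1/Gbx2-high cells (57.2 ± 16.9), at 3.70 and 3.78 in Cbln-high cells and at 2.46 and 1.71 in Calb2-high cells. The first of these lay above the next, and that above the last 2, in each mouse. Gabra4 followed the same order with a shallower slope, at 780 and 689, 415 and 378, 357 and 225, and 95.0 and 50.5 CPM. The Cbln-high cells thus had Gabra4 at 225 CPM or more with Gabrd below 4.15 CPM, its level in microglia-like cells of mouse 2.

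**Figure D3:**
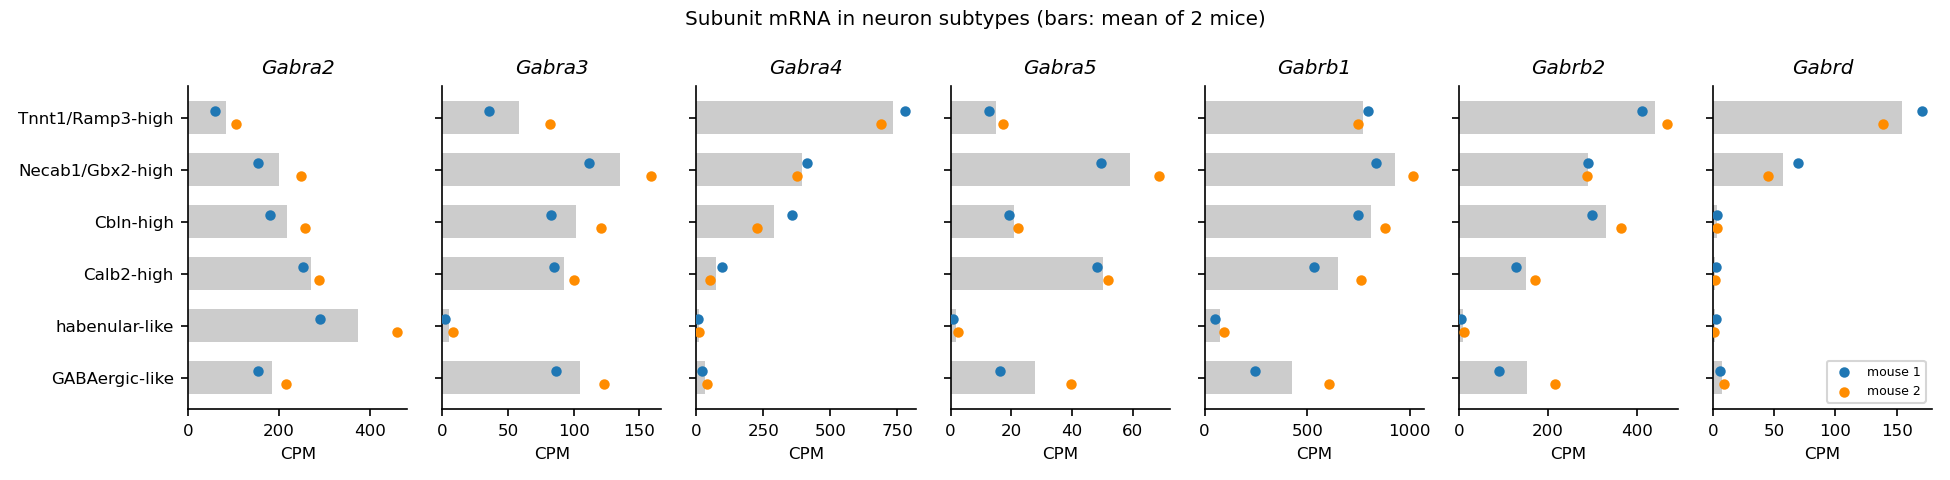
CPM of each subunit mRNA in 6 neuron subtypes (grey bars, mean of 2 mice; points, each mouse; linear axes that differ between panels). Gabrd is at 139 to 170 CPM in Tnnt1/Ramp3-high cells, 45.3 to 69.1 in Necab1/Gbx2-high cells and at most 8.91 in the other subtypes.

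Gabra2 ran the other way, with 58.5 and 106 CPM in Tnnt1/Ramp3-high cells against 154 and 247 in Necab1/Gbx2-high, 179 and 258 in Cbln-high and 253 and 287 in Calb2-high cells. Gabra5 stood at 12.7 and 17.4 CPM in Tnnt1/Ramp3-high cells and at 49.6 and 68.7 in Necab1/Gbx2-high and 48.3 and 51.7 in Calb2-high cells, with no overlap, while Cbln-high cells were low (19.4 and 22.3). Gabra3 was highest in Necab1/Gbx2-high cells (112 and 159 CPM) and lowest among these subtypes in Tnnt1/Ramp3-high cells (35.8 and 81.7). Gabrb1 lay between 533 and 1017 CPM in each of these subtypes and mice, and Gabrb2 between 129 in Calb2-high and 469 in Tnnt1/Ramp3-high cells.

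In the test over neuron subtypes, Tnnt1/Ramp3-high against Necab1/Gbx2-high cells, 1 subunit gene was called higher (2.72% of 15980 genes tested) and 3 lower (4.52%). Gabrd was higher by 1.55 ± 0.21 (edgeR adjusted p = 0.000769). Gabra5 was lower by -1.89 ± 0.24 (0.000424), Gabra2 by -1.22 ± 0.19 (0.00131) and Gabra3 by -1.19 ± 0.28 (0.0189). Gabra4 (0.98 ± 0.38, adjusted p = 0.148), Gabrb2 (0.68 ± 0.28) and Gabrb1 (-0.14 ± 0.29) were not called. Necab1/Gbx2-high cells numbered 25 in mouse 1. Without the mouse term only Gabra5 remained called among the 3 lower genes. With doublets kept the calls of Gabrd (log2 fold change 1.06, edgeR adjusted p = 0.0517) and Gabra3 (-1.13, 0.188) were lost. That setting also redrew the subtypes. A ribosomal-poor cluster of 69 and 742 cells was named Necab1/Gbx2-high, and only a ribosomal-rich cluster (114 and 271 cells) was named Tnnt1/Ramp3-high. The effect of doublets alone was not tested.

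Against Calb2-high cells, Tnnt1/Ramp3-high cells had 3 subunit genes called higher (9.86% of all genes tested) and 2 lower (11.9%). Gabrd was higher by 6.52 ± 0.34 (edgeR adjusted p = 2.74e-07), from 3 and 12 UMIs in Calb2-high cells against 2783 and 4271, and Gabra4 by 3.66 ± 0.43 (0.000173). Gabrb2 was higher by 1.84 ± 0.29 (0.000479). With doublets kept, which also redrew the subtypes, the edgeR adjusted p of Gabrb2 was 0.0503. Gabra2 was lower by -1.51 ± 0.19 and Gabra5 by -1.45 ± 0.25, while Gabra3 and Gabrb1 were not called. Cbln-high cells were not tested against the other subtypes, and habenular-like cells were not divided into Tac2 and Tac1 sides.

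In single neurons, Gabra4 and Gabrd mRNA were found together almost throughout the Tnnt1/Ramp3-high subtype. Each cell was thinned to 20000 UMIs so that depth did not differ, which left out 2 and 182 of those cells. All 178 and 567 remaining cells had a Gabra4 UMI, and 88.8% and 85.9% also had a Gabrd UMI. In Necab1/Gbx2-high cells, 100% and 99.4% had Gabra4 and 56.0% and 50.1% had both. In Cbln-high cells Gabra4 was in 86.7% and 88.2%, and 5.33% and 6.58% had both. Calb2-high cells had Gabra4 in 83.3% and 50.9% and both in 8.33% and 1.20%. As a background, Gabrd UMIs were found in 5.67% and 2.86% of habenular-like cells at the same depth, so shares of a few percent are not read as expression.

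**Figure D4:**
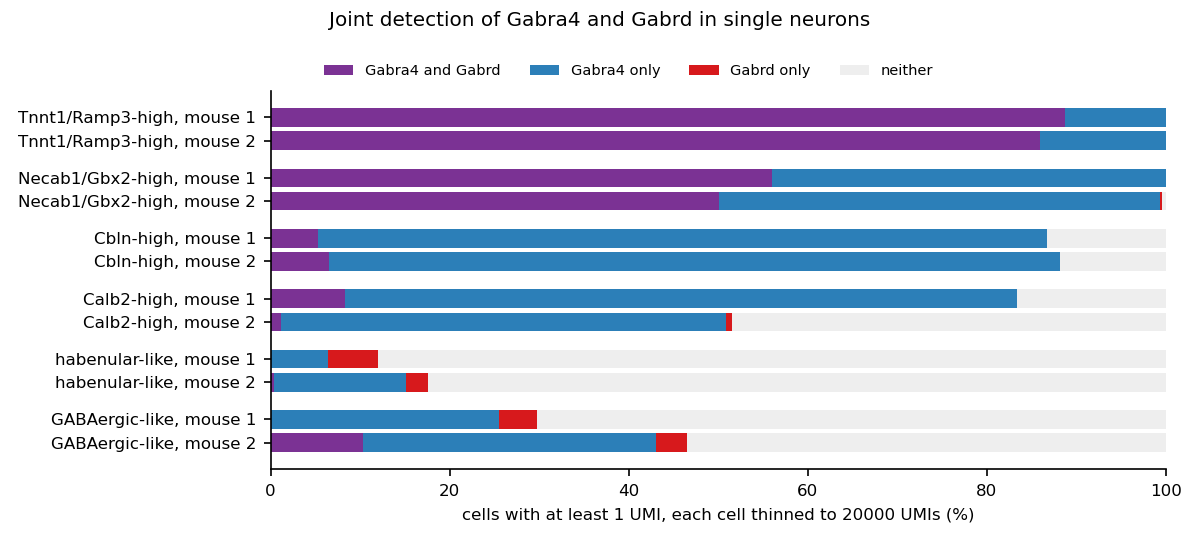
Percent of neurons with at least 1 UMI of Gabra4 and Gabrd, of 1 of them or of neither, after thinning each cell to 20000 UMIs, by subtype and mouse. Cells with both make up 85.9% to 88.8% of Tnnt1/Ramp3-high and 50.1% to 56.0% of Necab1/Gbx2-high cells.

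Gabra2 and Gabra4 UMIs were also counted together in single neurons. At 20000 UMIs, 48.9% and 66.1% of Tnnt1/Ramp3-high cells and 68.0% and 89.9% of Necab1/Gbx2-high cells had a UMI of each. Since 99.4% or more of these cells had Gabra4, these are close to the shares with Gabra2 alone. No class that should lack Gabra2 was read at this depth. In Cbln-high cells the share was 82.7% and 86.2%. Habenular-like cells had Gabra2 in 94.3% and 91.8% of cells and Gabra4 with it in 4.96% and 14.3%.

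The make-up of the 7 subunit mRNAs was taken as shares of their summed UMIs for each subtype and mouse. Gabra4 and Gabrd gave 34.4% and 7.52% of subunit UMIs in Tnnt1/Ramp3-high cells of mouse 1 and 30.6% and 6.16% in mouse 2. In Calb2-high cells Gabra4 gave 8.29% and 3.54% and Gabra2 22.1% and 20.1%. Habenular-like cells drew 81.5% and 77.5% of their subunit UMIs from Gabra2, against 2.58% and 4.70% in Tnnt1/Ramp3-high cells. GABAergic-like cells drew 24.7% and 17.2% from Gabra2, 14.0% and 9.88% from Gabra3 and 3.39% and 3.24% from Gabra4. Other subunit genes are outside these sums, so a share is among the 7 genes and not of all receptor mRNA. The shares are not corrected for gene length or priming, so each is read across cell types and not against another gene.

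**Figure D5:**
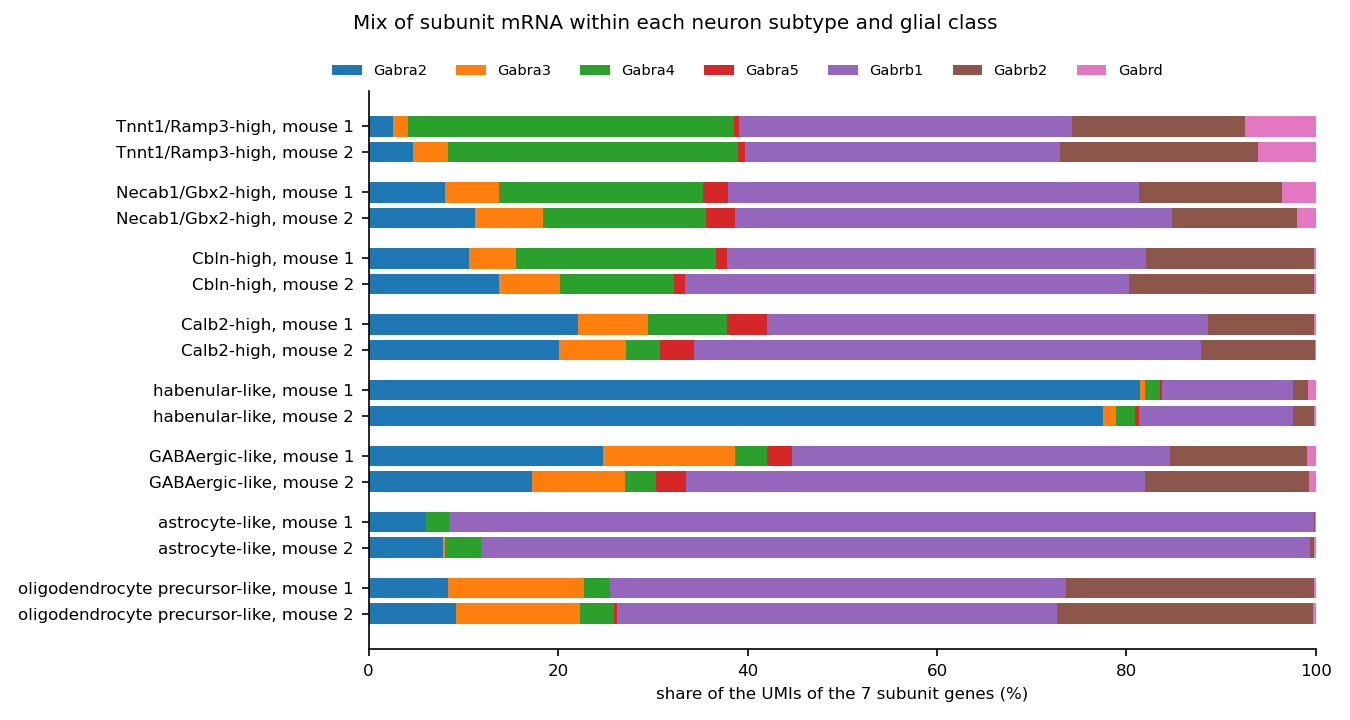
Share of each gene in the summed UMIs of the 7 subunit genes (stacked to 100%), by subtype or glial class and mouse. Gabra2 fills 81.5% and 77.5% of habenular-like and Gabrb1 91.3% and 87.4% of astrocyte-like bars, and Gabra4 is widest in Tnnt1/Ramp3-high cells.

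Among glia, astrocyte-like and oligodendrocyte precursor-like cells carried subunit mRNA in different combinations, and oligodendrocyte-like cells had little of any. Astrocytes are known to carry GABA-A receptors, and precursors receive synaptic input from neurons. In astrocyte-like cells (1030 and 362 cells) Gabrb1 gave 91.3% and 87.4% of subunit UMIs, Gabra2 6.02% and 7.87% and Gabra4 2.44% and 3.79%. In oligodendrocyte precursor-like cells (144 and 966) the shares were 48.2% and 46.4% Gabrb1, 26.2% and 27.1% Gabrb2, 14.3% and 13.2% Gabra3 and 8.41% and 9.19% Gabra2. After thinning to 2000 UMIs, 96.9% and 97.5% of astrocyte-like cells had a Gabrb1 UMI, against 36.1% and 39.6% of precursor-like, 0.966% and 3.22% of oligodendrocyte-like and 2.44% and 4.63% of microglia-like cells. The microglia-like share is read as background.

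Against oligodendrocyte-like cells (1971 and 3306), astrocyte-like cells had 3 subunit genes called higher (22.6% of all genes tested) and 0 lower (17.6%). Gabrb1 was higher by 7.90 ± 0.59 (edgeR adjusted p = 7.76e-10), from 2503 and 2467 against 6.61 and 13.6 CPM. Gabra2 was higher by 5.43 ± 0.44 and Gabra4 by 3.87 ± 0.60. Gabra3, Gabra5, Gabrb2 and Gabrd were not called and stood at no more than 14.3 CPM in either mouse in both classes.

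Oligodendrocyte precursor-like cells had 6 subunit genes called higher than oligodendrocyte-like cells (21.4% of all genes tested) and 0 lower (15.6%). Gabrb2 was higher by 5.55 ± 0.73 (147 and 186 against 1.06 and 6.01 CPM), Gabra3 by 4.94 ± 0.57, Gabrb1 by 4.52 ± 0.51 and Gabra2 by 3.34 ± 0.41. Gabra4 (1.51 ± 0.58, edgeR adjusted p = 0.0384) and Gabra5 (1.62 ± 0.60, 0.0335) passed narrowly, and Gabra5 rests on 0 and 30 UMIs in precursors against 4 and 28, with the direction reversed in mouse 1 (-0.57). The Gabra4 call was lost with no gene filter (adjusted p = 0.124), no mouse term (0.136) or no ribosomal-poor clusters (0.0544), and the Gabra5 call without the mouse term (0.166). Gabrd, at 0.894 and 1.97 against 2.10 and 2.56 CPM, was not called (-0.92 ± 0.57).

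Set against each other, astrocyte-like cells were higher than precursor-like cells in 3 subunit genes (13.9% of all genes tested) and lower in 2 (13.5%). Gabrb1 was higher by 3.39 ± 0.48 (edgeR adjusted p = 1.05e-05), Gabra4 by 2.36 ± 0.58 (0.00325) and Gabra2 by 2.09 ± 0.39 (0.000232). Gabra3 was lower by -5.31 ± 0.65 (1.56e-06), with 0.579 and 5.33 against 80.4 and 90.6 CPM, and Gabrb2 by -4.49 ± 0.72 (4.51e-05). Committed precursor-like cells, the next stage after precursors, held 13.4 and 25.1 CPM of Gabrb1 and 3.91 and 27.8 of Gabrb2. These levels lay below those of precursor-like cells in each mouse. They lay above those of oligodendrocyte-like cells (6.61 and 13.6 of Gabrb1, 1.06 and 6.01 of Gabrb2) in each mouse. Microglia-like cells held 6.61 and 21.8 CPM of Gabrb1 and endothelial-like cells 6.97 and 32.1, so Gabrb1 of the committed stage lay near these classes. Gabrb2 of the committed stage rests on 7 UMIs in mouse 1, and that stage was not tested.

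Averaged over classes with equal weight, all 7 subunit genes were called higher in the 4 neuron classes than in the other 10 classes (23.7% of all genes tested were called higher) and 0 lower (12.7%). The log2 fold changes ran from 1.08 ± 0.26 for Gabrd to 4.71 ± 0.18 for Gabra2. Gabrd, which was high in 1 neuron class, fell below the fold limit without the ribosomal-poor clusters (0.86, edgeR adjusted p = 0.00902). The average does not hold class by class. Gabrb1 was highest in astrocyte-like cells (2485 ± 25.3 CPM), and its level in habenular-like cells (72.9 ± 33.8) lay below that of precursor-like cells (295 ± 34.0). Gabra3, Gabra4, Gabra5 and Gabrb2 stood at no more than 12.8 CPM in habenular-like cells of either mouse.

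Subunit levels were compared between the ribosomal-poor and ribosomal-rich clusters of a subtype. Of the 5 ribosomal-poor neuron clusters, 4 fell into a subtype that also had a ribosomal-rich cluster. In Tnnt1/Ramp3-high cells they made up 63 of 180 cells in mouse 1 and 416 of 749 in mouse 2. Gabrb2 stood at 586 and 671 CPM there against 360 and 368 in the ribosomal-rich cluster, a ratio of 1.63 and 1.82, and Gabrb1 at a ratio of 1.59 and 1.27. Gabra4 had a ratio of 0.777 and 1.01 and Gabrd of 0.578 and 0.987. In Necab1/Gbx2-high cells of mouse 2 the ratio was 2.95 for Gabrb2, 1.62 for Gabrb1 and 1.03 for Gabrd. In habenular-like cells the ratio for Gabrb2 was 1.13 in each mouse and that for Gabrb1 4.39 and 0.994. Calb2-high and GABAergic-like cells had no such cluster. Restricted to ribosomal-rich clusters, Gabrd still stood at 189 and 139 CPM in Tnnt1/Ramp3-high against 65.2 and 44.9 in Necab1/Gbx2-high cells, and Gabra2 at 52.2 and 112 against 181 and 235.

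The partner subunits and other genes of GABA signalling were read from lists. Of 12 further subunit genes, 7 were tested over classes. None of them was called higher in glutamatergic-like than in GABAergic-like cells and 1 was lower, the rho subunit gene Gabrr2 (-4.02 ± 0.75). Of all genes 7.06% were higher and 4.71% lower. The median log2 fold change of these 7 was -0.13, against 0.12 over all genes. In habenular-like against glutamatergic-like cells, 5 of these 7 were lower and 0 higher, beside 12% and 8.89% of all genes. The median was -2.64, against -0.04 over all genes. Gabrg3 was lower by -4.12 ± 0.69. The gamma subunit Gabrg1 was higher in astrocyte-like than in oligodendrocyte-like cells by 6.60 ± 0.49 (159 ± 42.6 against 1.36 ± 0.0495 CPM) and than in precursor-like cells by 1.73 ± 0.40. In precursor-like cells Gabrg3 was higher than in oligodendrocyte-like cells by 6.84 ± 0.77 (529 ± 71.1 against 4.17 ± 3.29 CPM). Among neuron subtypes, Gabrg1 was lower in Tnnt1/Ramp3-high than in Calb2-high cells by -2.03 ± 0.24.

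Of 16 clustering and trafficking genes, 8 were higher and 1 lower in neurons than in the other classes (median 1.10, against 0.10 over all genes). Over all genes 23.7% were higher and 12.7% lower. In glutamatergic-like against GABAergic-like cells 0 were higher and 1 lower, beside 7.06% and 4.71% of all genes. In habenular-like cells 0 were higher and 1 lower against glutamatergic-like cells (8.89% and 12% of all genes), and 0 higher and 2 lower against GABAergic-like cells (6.69% and 7.94%). The counts between neuron classes are near the shares of all genes, whereas 8 of 16 higher in neurons is above the 23.7%. Hap1, a transport adaptor for the receptor, was lower in Tnnt1/Ramp3-high cells than in Necab1/Gbx2-high (-1.98 ± 0.24) and Calb2-high cells (-3.43 ± 0.25). Shisa7, an auxiliary subunit of GABA-A receptors, was higher in precursor-like than in oligodendrocyte-like cells by 6.41 ± 0.49 (64.9 ± 3.58 against 0.551 ± 0.154 CPM). Nlgn2, the adhesion protein of inhibitory synapses, was higher by 2.78 ± 0.35 in the same comparison. Gphn, the scaffold gephyrin, was not called in any of the 9 comparisons.

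The GABA-B receptor list, metabotropic receptors for the same transmitter, had 2 of 5 genes higher and 1 lower in habenular-like than in glutamatergic-like cells (median 0.53). Of all genes 8.89% were higher and 12% lower, with a median of -0.04. Gabbr1 was higher by 1.53 ± 0.26 (1626 ± 134 against 516 ± 111 CPM). The KCTD partners that tune GABA-B signalling divided: Kctd8 was higher in habenular-like cells by 5.78 ± 0.48 (1957 ± 89.8 against 35.9 ± 27.2 CPM) and Kctd16 lower by -5.75 ± 0.52 (11.0 ± 0.166 against 514 ± 171). Gabbr2 was higher in Tnnt1/Ramp3-high than in Necab1/Gbx2-high cells by 1.07 ± 0.20, and in astrocyte-like than in oligodendrocyte-like cells by 5.67 ± 0.58.

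Of 9 chloride-gradient genes, 0 were higher and 1 lower in habenular-like than in glutamatergic-like cells, near the 8.89% and 12% of all genes. That gene was Slc12a5, the chloride exporter KCC2 of mature neurons, at 32.8 ± 18.4 against 241 ± 8.41 CPM (-3.18 ± 0.44, edgeR adjusted p = 1.27e-05). It was also lower than in GABAergic-like cells (-3.03 ± 0.44). The importer Slc12a2 was lower in astrocyte-like than in oligodendrocyte-like cells (34.2 ± 6.37 against 1048 ± 161 CPM, -5.18 ± 0.41). Of 4 glycine receptor genes tested, the other fast inhibitory receptor family, 3 were lower and 0 higher in habenular-like than in glutamatergic-like cells (median -4.23). Beside these, 12% of all genes were lower and 8.89% higher, with a median of -0.04. Glra1 was lower in Tnnt1/Ramp3-high than in Necab1/Gbx2-high cells (-2.82 ± 0.34) and Glra3 lower than in Calb2-high cells (-3.19 ± 0.21). Of 5 neurosteroid genes tested, 1 was higher in neurons than in the other classes and 2 were lower, among them Tspo (-4.26 ± 0.19). Of all genes 23.7% were higher and 12.7% lower, and with 5 genes these counts are not read as a result. Srd5a1, which makes precursors of the steroids that act on delta-containing receptors, was lower in astrocyte-like than in oligodendrocyte-like cells (3.42 ± 1.11 against 56.7 ± 0.974 CPM, -4.36 ± 0.42).

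The genes most alike to each subunit were taken by Pearson correlation of log2(CPM + 1) over the 14 class means, among 13029 genes. The class means share libraries and depth, so these are descriptions. They include the low-UMI choroid plexus-like barcodes, which ranked next after glutamatergic-like cells for Gabra4 and Gabrd. The weight of that class in the correlations was not tested. Gabrd was most like Cox6a2 (r = 0.943), Tnnt1 (0.933, a marker used for the subtypes) and Ptpn3 (0.917). Gabra4 was most like Grm4 (0.957), Cit (0.955) and Wnt9b (0.920), and Gabra2 like Syt10 (0.964), Drp2 (0.955) and Lekr1 (0.951). Gabrb1 was most like Chl1 (0.977), Trim9 (0.965) and Lgi1 (0.964). Gabra3 and Gabrb2 shared Trpc5 (0.969 and 0.961) and Cntn4 (0.961 and 0.967) among their nearest genes, with Cdh18 (0.958) for Gabra3 and Siah3 (0.981) for Gabrb2, and Gabra5 was most like Zfp804b (0.980), Scrt2 (0.972) and Cntnap5a (0.972). Among the members themselves, Gabra3 and Gabrb2 were the most alike pair (r = 0.970) and Gabra2 and Gabrd the least (0.0148).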

How the data were processed

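Single-cell RNA was counted by the authors as unique molecular identifier (UMI) counts per gene and barcode, and these deposited counts were used as they stand. Cell Ranger 7.1.0, Seurat 5 and the mm10 genome are named per the submitters' processing notes, with no role given for each. Barcodes were kept from 500 genes and 1000 UMIs upward and up to a mitochondrial share of 15%. This removed 1156 and 1849 barcodes below a minimum and 367 and 820 above the mitochondrial limit in mice 1 and 2. Simulated-doublet scoring then removed 181 and 262 cells, 2.84% and 2.78% of those scored. This was below the expected 6.31% and 9.69% of barcodes, so doublets may remain among the cells kept.

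Cells were clustered with scanpy 1.11.5 (2000 variable genes, 30 components, 15 neighbours, Leiden resolution 1), with the members and all listed genes held out. The same cells were clustered and compared. UMIs were summed per mouse and class, and the 14 classes that held 20 or more cells in both mice were tested with edgeR 4.0.16 (quasi-likelihood, TMM, mouse as a block; 17230 genes over classes and 15980 over neuron subtypes). The classes of a mouse come from 1 animal, so the mouse term pairs them. The SE of a log2 fold change was taken as its size over the square root of the F statistic. Statistics were tested on simulated data. DESeq2 1.42.0, its size factors, no gene filter, no mouse term, a 5% mitochondrial limit, Leiden resolution 2, doublets kept and each mouse alone were alternatives. Leaving out ribosomal-poor clusters (a median under 0.7% ribosomal protein UMIs) or choroid plexus-like sums was added after seeing the data.

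The members and lists were chosen with earlier results of these data known. Of each other list, up to 4 called genes per comparison with the largest change, at least 50 CPM and the same direction in each mouse could be named, and Gphn and Gabrr2 were named after their values were seen. Some genes of these lists are not reported here by name. Promoter sequences are from RefSeq. Intervals for shares of cells cover counting error only.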

Additional observations from a re-analysis of the deposited data

How the results depend on the processing

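Of the values with a test, 500 kept their direction and side of the threshold, 27 lost a call, 3 gained one and 2 reversed. Glutamatergic-like against GABAergic-like cells had 2 members called higher in place of 4 with DESeq2 size factors, the DESeq2 test, no replicate block, a 5% mitochondrial limit or no ribosomal-poor clusters, and 3 with no gene filter. In the first 5 of these settings habenular-like against GABAergic-like cells had 0 called higher in place of 1, and habenular-like against glutamatergic-like cells had 0 in place of 1 without the replicate block. For Tnnt1/Ramp3-high against Necab1/Gbx2-high cells, leaving out the block gave 1 member lower in place of 3 and 511 genes called in place of 1158, while keeping doublets gave 0 members higher in place of 1 and 412 genes. Gabra3 reversed from -0.19 to 0.059 (glutamatergic-like against GABAergic-like, 5% mitochondrial limit) and Gabrb2 from 0.68 to -0.23 (Tnnt1/Ramp3-high against Necab1/Gbx2-high, doublets kept). The cause was not tested. Keeping doublets also redrew the subtypes, with a ribosomal-poor cluster of 69 and 742 cells named Necab1/Gbx2-high and no ribosomal-poor cluster named Tnnt1/Ramp3-high.

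A single mouse has no test, and members past the fold limit are counted. Between the 2 mice, this count ran from 0 to 1 lower for precursor-like and for astrocyte-like against oligodendrocyte-like cells, from 4 to 5 higher for astrocyte-like against precursor-like cells and from 1 to 2 higher for Tnnt1/Ramp3-high against Necab1/Gbx2-high cells. For precursor-like against oligodendrocyte-like cells Gabra5 ran from -0.57 in mouse 1 to 1.25 in mouse 2. The Gabra2 share of habenular-like cells moved from 79.5% to 83.5% with the 5% mitochondrial limit and 73.7% with doublets kept. In Tnnt1/Ramp3-high cells the Gabra4 share moved from 32.5% to 36.3% with doublets kept and 35.4% without ribosomal-poor clusters. The Gabrd share moved from 6.84% to 8.01% with doublets kept. With doublets kept, that subtype held no ribosomal-poor cluster. DESeq2 size factors moved the part of calls that were higher from 57.8% to 69.2% for precursor-like against oligodendrocyte-like cells, with the median of all genes from -0.05 to 0.25, and the DESeq2 test moved it from 65.2% to 52.2% for neurons against other classes. For astrocyte-like against oligodendrocyte-like cells the median moved from 0.11 to 0.38. No member changed direction under these scalings. With doublets kept, GABAergic-like cells were too few to compare, and without ribosomal-poor clusters Necab1/Gbx2-high cells were. No neurons lay in low-UMI clusters, so leaving such clusters out gave no value, and habenular-like cells were not split.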

Other observations

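Ependymal-like cells, with 4 cells in mouse 1 and 29 in mouse 2, entered no comparison. In mouse 2 they held 232 CPM of Gabrb1, 62.2 of Gabrb2, 53.9 of Gabra2 and 6.22 of Gabrd, and in mouse 1 Gabrb1 rested on 6 UMIs and Gabra2 on 0. Endothelial-like cells held 6.97 and 32.1 CPM of Gabrb1 and mural-like cells 9.71 and 23.5. In habenular-like cells of mouse 1, Gabrb1 stood at 105 CPM in the ribosomal-poor and 24.0 in the ribosomal-rich cluster, while in mouse 2 these values were 96.3 and 96.9.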
